A study of Homo sapiens with 10 samples.

Results

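The genes described here encode the subunits of the proteasome. They were chosen by symbol, as the genes named PSMA, PSMB, PSMC, PSMD or PSME followed by digits only, which leaves out pseudogenes, with a mean of at least 10 counts over the 10 samples. Of the 57353 gene symbols in the counts, 43 had such a name and 40 passed the minimum, and all 40 were among the 17230 genes tested. By place in the complex they were 7 genes of the alpha ring of the core, 7 constitutive genes of its beta ring, 2 immune forms of beta subunits, 6 ATPases of the base, 3 other base subunits, 8 lid subunits, 3 chaperones of base assembly, both genes of the activator PA28 alpha-beta and 2 other activators. The members just inside the minimum were PSMB8, with a mean of 40.8 counts, and PSMB10, with 44.5. Just outside it was PSMB9, with 7.2 counts, and the thymus form PSMB11 (0.2 counts) and the testis form PSMA8 (0 counts in every sample) were further below.

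The proteasome breaks down proteins that carry ubiquitin chains. Its core is a barrel of stacked rings, in which the outer alpha rings form the gate and the inner beta rings hold the cutting sites of PSMB5, PSMB6 and PSMB7, which PSMB8, PSMB9 and PSMB10 replace in immune cells and under interferon. A regulatory particle caps the barrel, with a base of ATPases that unfold the substrate and a lid that removes the ubiquitin, and activators of the PSME family can bind the core in its place. Cells make the subunits in step, and when the proteasome is blocked the transcription factor NFE2L1 raises many subunit genes together.

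RNA was sequenced from LNCaP-C4-2 cells, an established line of castration-resistant prostate cancer, to ask what knockdown and over-expression of CPT1A, the enzyme that brings long-chain fatty acids into mitochondria, do to gene expression. All cells were transduced with lentivirus and selected with a drug. NT cells carried a scrambled non-targeting shRNA (n = 2) and KD cells an shRNA against CPT1A (n = 3), both under puromycin at 1 µg/mL, and EV cells carried an empty vector (n = 2) and OE cells a CPT1A cDNA (n = 3), both under blasticidin at 5 µg/mL. The study's methods name 1 shRNA and mention no repeat of the transduction, so each line is treated as 1 line, and p-values measure only the spread between samples of the same line, which may be technical.

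Levels are given as CPM, counts scaled to a common library size with TMM factors, and depth was 23555205 to 28615770 counts per sample. CPT1A was at 262 and 265 CPM in NT, 81.3 to 86.4 in KD, 318 and 326 in EV and 861 to 914 in OE, as labelled. The 9 markers of prostate epithelium were detected in every line, with summed levels of 6209 to 6459 CPM in NT, 8889 to 9636 in KD, 8123 to 8490 in EV and 11790 to 12250 in OE. Of 7 markers of leucocytes, stroma and endothelium, 3 had no count in any sample, and the 7 together, nearly all of it COL1A1, came to 9.24 and 10.5 CPM in NT, 14.7 to 15.9 in KD, 8.62 and 9.82 in EV and 10.9 to 12.8 in OE. The part of these marker levels in the results was not tested. Tests were edgeR's quasi-likelihood F test with Benjamini-Hochberg adjustment over the 17230 genes, and a gene is said to rise or fall where the adjusted p was under 0.05. The comparisons were KD with NT, OE with EV, the interaction, which is the OE-EV difference minus the KD-NT difference on the log2 scale, and EV with NT.

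Promoter sequences show what members share around their starts and where they differ. RefSeq promoters on GRCh38.p14, from 250 bases before to 50 after each start, were matched to 35 of the 40 members, and motifs were searched on both strands. The letters TGACNNNGC, the core of an antioxidant-type element that NFE2L1 and related factors bind, occurred in 10 of the 35 (28.6%) and in 13.6% of all 27305 promoters. They were in 0 of 6 alpha-ring promoters and in both PA28 promoters. In PSMC4 and PSMD1 the only match lay after the start. Among matched members the letters were in 6 of 12 that rose, 0 of 5 that fell and 4 of 18 not called in KD cells. In OE cells they were in 4 of 10 that rose, 2 of 13 that fell and 4 of 12 not called. The shares over all genes that rose, fell or were not called were not computed. These counts are few, and a link of the letters with the calls was not tested. The stretches below hold the match in capitals, in a beta-ring gene that rose in OE cells (PSMB3, chr17:38752611-38752671, plus strand), in a lid gene that rose in KD and OE cells (PSMD3, chr17:39980744-39980804, plus strand) and in a lid gene called lower in OE cells, though higher with the GC offset treated below (PSMD12, chr17:67366708-67366768, minus strand).
PSMB3: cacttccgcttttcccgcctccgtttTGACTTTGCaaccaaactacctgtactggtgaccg
PSMD3: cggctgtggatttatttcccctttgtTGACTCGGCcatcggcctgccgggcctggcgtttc
PSMD12: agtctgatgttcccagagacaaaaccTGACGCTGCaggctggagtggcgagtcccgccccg

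The letters GAAA followed after any 2 bases by GAAA again, part of the interferon-stimulated response element, occurred in 5 of the 35 promoters (14.3%) and in 3.6% of all promoters. The 5 were those of PSMA4, PSMB4, PSMB10, PSME1 and PSME2, and the match of PSME1 lay after its start. The stretches of PSMB10 (chr16:67936851-67936897, minus strand) and PSME2 (chr14:24146611-24146664, minus strand) are shown because an immune core gene and an activator gene carry the same match, in capitals, close to their starts, while of the pair only PSME2 passed the test in KD cells.
PSMB10: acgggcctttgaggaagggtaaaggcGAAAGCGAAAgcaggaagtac
PSME2: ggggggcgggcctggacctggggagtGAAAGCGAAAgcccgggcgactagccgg

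CCAAT occurred in 16 of 35 member promoters (45.7%) and 35.7% of all promoters, and GGGCGG, a GC box, in 23 of 35 (65.7%) and 44.6%. A match of letters is a description of the sequence and not a bound site.

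Proteasome genes were among the more abundant transcripts, with a median level of 91.1 CPM over the members against 13.9 CPM over all tested genes. Per kilobase of the canonical transcript, the constitutive beta-ring genes had the highest median level (108 CPM per kb, from 29.2 for PSMB2 to 230 for PSMB4), followed by the base subunits that are not ATPases (94.8), the lid (55.7), PA28 alpha-beta (49.0) and the ATPases (44.1). The alpha ring had a lower median of 19.9 CPM per kb with a wide range, from 1.63 for PSMA2 to 177 for PSMA7. Both immune core genes were lower still, at 1.41 (PSMB8) and 1.79 (PSMB10) CPM per kb. Levels per kilobase depend on the annotated length, which in the alpha ring ran from 955 bases for PSMA3 to 4378 for PSMA4. Other transcripts of a gene were not weighed. Levels of 5 members are uncertain because other annotated genes share part of their exons on the same strand, over 100% of the exonic bases of PSMA2, 81.4% of PSMA6, 67.0% of PSMA1, 56.1% of PSMB10 and 28.8% of PSMD9, and the handling of shared reads was not stated. Pseudogenes of the family took 0.0209% as many counts as the members.

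Summed over the 40 members, the levels were at 3679 and 3707 CPM in NT, 3787 to 3958 in KD, 3494 and 3617 in EV and 3676 to 3863 in OE, so that each arm lay above its control with TMM scaling. As a share of all counts without it, KD (0.399% to 0.413%) lay above NT (0.372% and 0.374%), and OE (0.349% to 0.362%) overlapped with EV (0.356% and 0.365%). Single genes moved up and down within that total. In KD cells 13 members rose and 7 fell against NT, which is 32.5% and 17.5% of members beside 29.1% and 28.4% of all tested genes. In OE cells 14 rose and 13 fell against EV, which is 35.0% and 32.5% of members beside 25.6% and 26.4% of all tested genes. With library size only the split in OE cells was 8 to 15, and with an offset for GC content, treated below, 13 to 5. The interaction was positive for 7 members and negative for 12 (17.5% and 30.0%, beside 20.3% and 24% of all genes), and the split was 3 to 15 with library size only, which moved the median of all genes by -0.134, and 10 to 10 with the GC offset. Between the control lines, 2 members were higher and 12 lower in EV than in NT (5.0% and 30.0%, beside 18.5% and 15.5% of all genes). Without EV replicate 2, 9 members rose in OE cells, 3 had a positive interaction and 7 were lower in EV, and without NT replicate 1, 6 were lower in EV. The interaction was positive for 3 members also without NT replicate 2 or OE replicate 1, for 4 without OE replicate 2, and negative for 8 without EV replicate 1. The median absolute log2 difference of members was 0.18 in KD versus NT and 0.22 in OE versus EV, beside 0.36 and 0.32 over all tested genes. Abundant genes were called more often, and of the 2207 tested genes at least as abundant as the median member 52.2% rose and 26.8% fell in KD cells and 49.4% rose and 25.1% fell in OE cells, with median absolute differences of 0.30 and 0.24. In bulk RNA, fewer cells with a transcript and less of it per cell cannot be told apart.

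**Figure D1:**
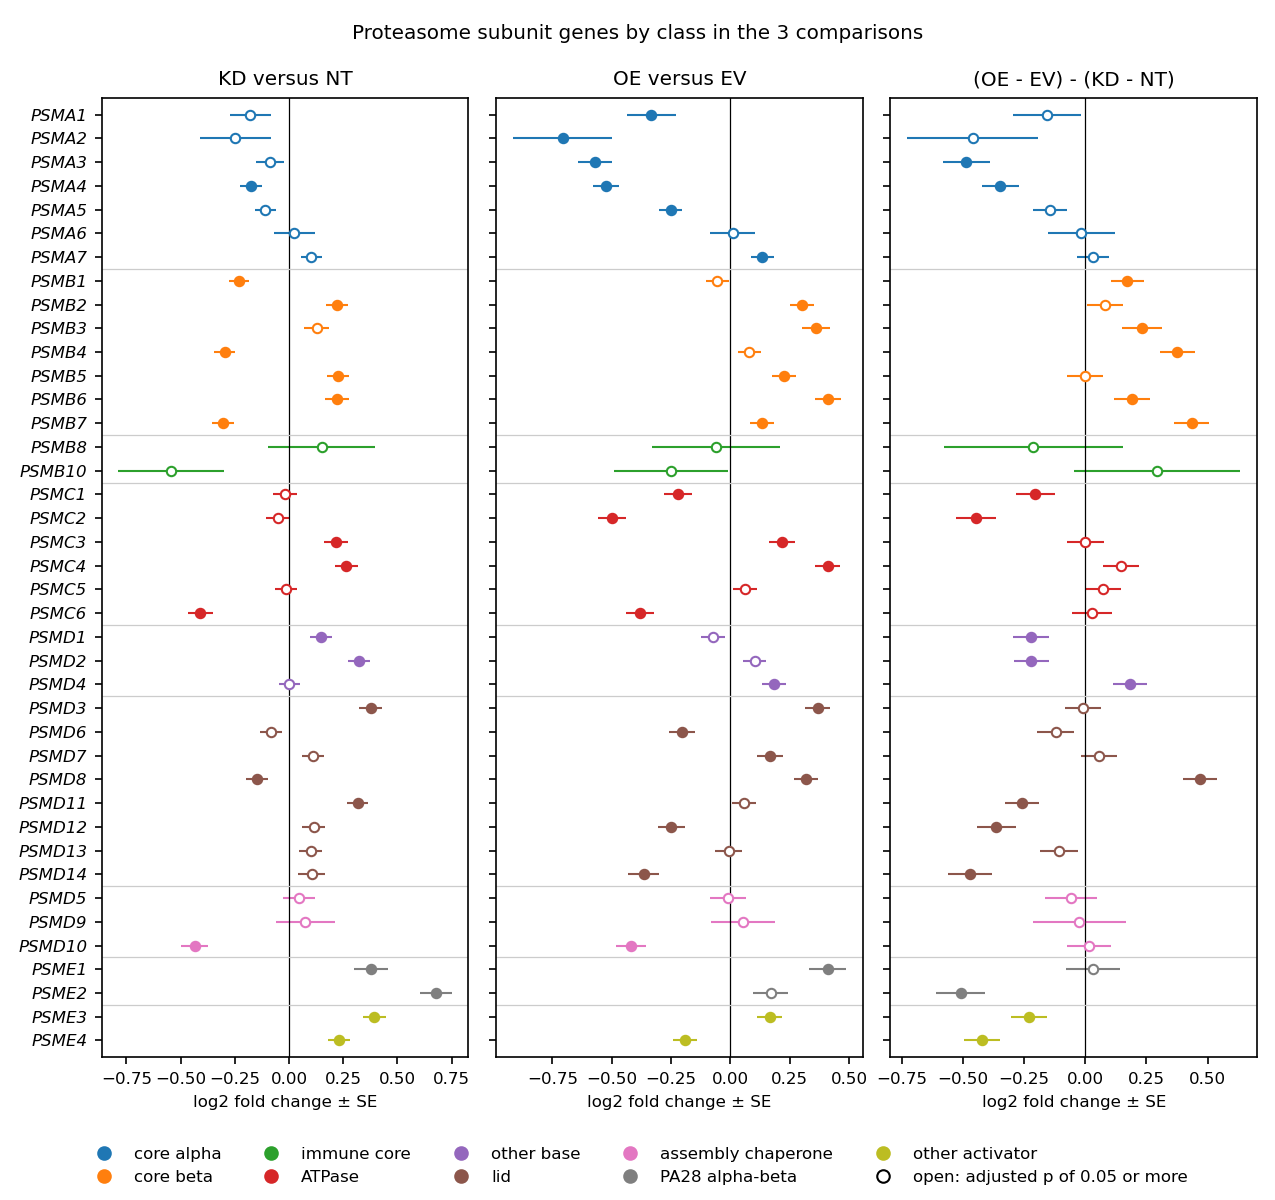
Log2 fold change ± SE of each of the 40 members in KD versus NT (left), OE versus EV (middle) and the interaction (right), coloured by class, with filled points where the adjusted p was under 0.05. The alpha-ring genes lie mostly to the left of 0 in OE versus EV and the beta-ring genes mostly to the right, and all 4 activator genes lie to the right of 0 in KD versus NT.

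In the alpha ring 5 of 7 genes fell in OE cells against EV (beside 26.4% of all tested genes), PSMA7 rose by 0.13 on the log2 scale and PSMA6 did not pass the test (0.01). The rise of PSMA7 did not pass without EV replicate 2 (0.10), without OE replicate 2 (0.11), with library size only (0.04) or with the GC offset (0.05). The median log2 fold change of the 7 was -0.33, beside -0.02 for all tested genes, and with the GC offset 2 of the 7 fell and the median was -0.10. In KD cells 1 of the 7 fell, PSMA4 (14.3%, beside 28.4% of all tested genes), and the median was -0.11. PSMA3 (alpha7, chromosome 14, 58244843 to 58272012, plus strand) was at 68.7 and 62.5 CPM in NT, 66.0, 56.7 and 62.7 in KD, 49.0 and 49.9 in EV and 33.8, 30.9 and 34.9 in OE. The OE samples were the lowest of the 10 and did not overlap with any other line, while KD and NT overlapped. PSMA3 differed by -0.57 ± 0.070 (SE) in OE versus EV, a level 1.49-fold lower (adjusted p = 3.21e-07), and by -0.09 ± 0.065 in KD versus NT (adjusted p = 0.266), and the interaction was -0.48 (adjusted p = 0.000212). Its OE-EV difference was -0.30 with the GC offset.

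PSMA4 (alpha3, chromosome 15, 78540405 to 78552417, plus strand) was at 155 and 149 CPM in NT, 137.6, 132.6 and 133.2 in KD, 121 and 118 in EV and 86.6, 76.5 and 86.7 in OE. No pair of lines overlapped, and the order was NT, KD, EV and then OE. It fell in both arms, by 0.18 in KD (adjusted p = 0.0058) and by 0.52 in OE cells (adjusted p = 2.53e-08), with an interaction of -0.35 (adjusted p = 0.000573). The fall in KD cells did not pass without NT replicate 1 (-0.14) or with the GC offset (-0.09), and with that offset the fall in OE cells was 0.31 and the interaction -0.215. PSMA2 (alpha2, chromosome 7, 42916828 to 42932185, minus strand) was at 3.40 and 3.30 CPM in NT, 2.80, 2.84 and 2.82 in KD, 1.79 and 2.52 in EV and 1.24, 1.27 and 1.43 in OE. Per kilobase it was the lowest of the alpha-ring genes, and the 2 EV samples were far apart. PSMA2 fell by 0.71 in OE versus EV (adjusted p = 0.00683), a difference that did not pass without EV replicate 2 (-0.45) or with the GC offset (-0.40), and its interaction of -0.46 ± 0.27 did not pass (adjusted p = 0.171). PSMA1 (alpha6) and PSMA5 (alpha5) fell by 0.33 and 0.25 in OE versus EV (adjusted p = 0.00896 and 0.000164), but PSMA1 did not pass without EV replicate 1 (-0.31), and with the GC offset neither passed (-0.10 and 0.11). Between the controls the alpha ring had 4 of 7 genes lower in EV than in NT (PSMA1, PSMA2, PSMA3 and PSMA4, by 0.34 to 0.64). The shares were 15.5% of all tested genes and 19.4% of those at least as abundant as the median member. PSMA1, PSMA2 and PSMA3 lay below that level. The EV-NT comparison shares the EV samples with OE versus EV. Without NT replicate 1 or EV replicate 1, PSMA1 (-0.35 and -0.36) and PSMA2 (-0.61 and -0.42) did not pass. PSMA1 also did not pass without NT replicate 2 or EV replicate 2 (-0.33 in each) or with the GC offset (-0.25). PSMA2 did not pass with the DESeq2 Wald test (-0.64).

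In the constitutive beta ring 5 of 7 genes were higher in OE cells than in EV, 0 were lower, and the median was 0.23, beside 25.6% of all tested genes higher and 49.4% of those at least as abundant as the median member. With library size only 4 were higher and PSMB1 lower, with a median of 0.13, and with the GC offset 4 were higher, with a median of 0.12. In KD cells 29.1% of all tested genes rose and 28.4% fell. Of those at least as abundant as the median member, 52.2% rose and 26.8% fell. The beta ring divided in KD cells. It had 3 genes higher (PSMB2, PSMB5 and PSMB6), 3 lower (PSMB1, PSMB4 and PSMB7) and PSMB3 not past the test. Its interaction was positive for 5 of 7 genes and negative for 0, beside 20.3% and 24% of all tested genes. Among those at least as abundant as the median member the shares were 30.2% and 35.5%. The median interaction of the beta ring was 0.19, beside -0.02 for all tested genes. PSMB7 (beta2, the trypsin-like site, chromosome 9, 124353465 to 124415444, minus strand) was at 118 and 122 CPM in NT, 96.7, 98.5 and 95.7 in KD, 104 and 98.2 in EV and 107, 116 and 108 in OE. KD lay wholly below NT and OE wholly above EV. PSMB7 fell by 0.30 in KD (adjusted p = 1.27e-05) and rose by 0.13 in OE cells (adjusted p = 0.0314), and its interaction of 0.44 ± 0.071 was the largest positive one among the core members (adjusted p = 2.17e-05). The rise in OE cells did not pass without EV replicate 2 (0.10), without OE replicate 2 (0.10), with library size only (0.03) or with the GC offset (0.10).

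PSMB4 (beta7, a subunit without a cutting site, chromosome 1, 151399560 to 151401937, plus strand) was at 237 and 235 CPM in NT, 194, 201 and 180 in KD, 209 and 204 in EV and 218, 227 and 210 in OE. Here too KD lay below NT and OE above EV with no overlap, though the OE difference of 0.08 did not pass the test (adjusted p = 0.191), other than with the replicate block (0.12). The interaction was 0.38 ± 0.071 (adjusted p = 0.000124). PSMB1 (beta6) fell by 0.23 in KD cells (adjusted p = 0.000169) and differed by -0.06 in OE cells (adjusted p = 0.341), and PSMB3 (beta3) rose by 0.36 in OE cells (adjusted p = 1.38e-05) and differed by 0.13 in KD cells (adjusted p = 0.0613), which passed in 4 alternatives (0.14 to 0.16). Interactions of PSMB1 (0.17, adjusted p = 0.0365), PSMB3 (0.23, adjusted p = 0.0229) and PSMB6 (0.19, adjusted p = 0.0429) were near the limit. The count of 5 beta-ring interactions fell to 3 when no genes were filtered, to 2 with library size only, to 2 without NT replicate 2, EV replicate 2 or OE replicate 1, and to 3 without OE replicate 2. PSMB4 and PSMB7 passed in all of these, and the values that did not pass were 0.04 to 0.19 for PSMB1, 0.10 to 0.22 for PSMB3 and 0.06 to 0.19 for PSMB6.

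**Figure D2:**
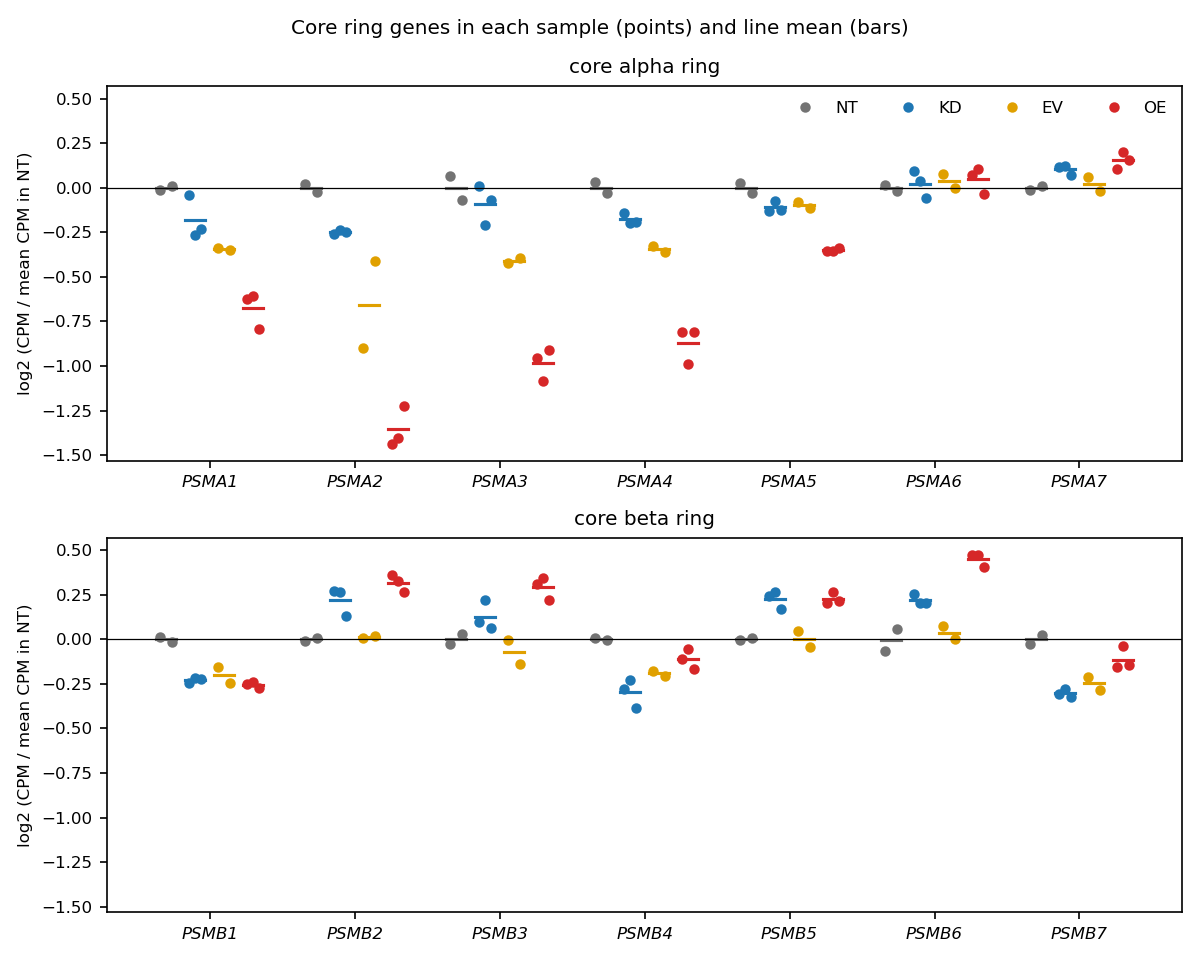
Level of each constitutive core gene in every sample (points) and in each line (bars, mean of 2 NT, 3 KD, 2 EV and 3 OE samples), as log2 of CPM over the mean CPM in NT, for the alpha ring (top) and the beta ring (bottom). OE samples are lowest for 5 alpha-ring genes, and for every beta-ring gene other than PSMB1 they lie above the EV samples.

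The 3 constitutive cutting subunits did not move as 1 group. PSMB5 (beta5, the chymotrypsin-like site) was at 77.2 and 77.8 CPM in NT, 91.7, 93.1 and 87.2 in KD, 80.1 and 75.1 in EV and 89.3, 93.2 and 89.9 in OE. It rose in both arms with no overlap with the controls, by 0.23 in KD (adjusted p = 0.000566) and 0.23 in OE cells (adjusted p = 0.000747), and the interaction was 0.00 ± 0.073. The rises were 0.10 (adjusted p = 0.0494) and 0.12 (adjusted p = 0.0197) with the GC offset. PSMB6 (beta1, the caspase-like site) was at 64.7 and 70.5 CPM in NT, 80.5, 78.0 and 77.9 in KD, 71.2 and 67.7 in EV and 94.0, 93.9 and 89.4 in OE. The OE samples were the highest of the 10, and PSMB6 rose by 0.22 in KD (adjusted p = 0.00104) and by 0.41 in OE cells (adjusted p = 7.6e-07). Its rise in KD cells did not pass without NT replicate 1 (0.16) or with the GC offset (0.06), and the rise in OE cells was 0.27 with that offset. PSMB7, given above, was the one that fell in KD cells. PSMB2 (beta4, without a cutting site) was at 114 and 116 CPM in NT, 138.5, 137.8 and 126 in KD, 116 and 116 in EV and 147, 144 and 138.1 in OE. It rose in both arms, by 0.22 in KD (adjusted p = 0.000629) and 0.30 in OE cells (adjusted p = 2.55e-05), and EV and NT differed by 0.02 ± 0.056.

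Immune core genes were at low levels in all 4 lines. PSMB8 (beta5i) had 35 and 49 counts in NT, 39, 62 and 46 in KD, 42 and 32 in EV and 35, 29 and 39 in OE. PSMB10 (beta2i) had 54 and 50 counts in NT, 41, 43 and 28 in KD, 46 and 57 in EV and 39, 34 and 53 in OE. Each line overlapped with its control for both genes, except KD with NT for PSMB10. PSMB8 differed by 0.15 ± 0.25 in KD versus NT and -0.06 ± 0.27 in OE versus EV, and PSMB10 by -0.54 ± 0.24 (adjusted p = 0.0597) and -0.25 ± 0.24, so that changes of the size seen in the beta ring were not detectable at this depth. The KD-NT difference of PSMB10 passed with limma-voom (-0.60), with the stricter filter (-0.56), with an offset for GC content (-0.72) and without KD replicate 1 (-0.65) or 2 (-0.71). PSMB9 (beta1i), which missed the minimum, had 12 and 10 counts in NT, 5, 4 and 9 in KD, 6 and 2 in EV and 8, 10 and 6 in OE, where 3 counts correspond to 0.0995 to 0.136 CPM. At these few counts its interaction was 1.97 ± 0.76 (adjusted p = 0.0393), and it passed in neither arm. Per kilobase, PSMB8 was at 1.31% to 2.44% of the level of PSMB5 in the same sample, PSMB10 at 0.978% to 2.37% of PSMB7 and PSMB9 at 0.0971% to 0.567% of PSMB6.

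**Figure D3:**
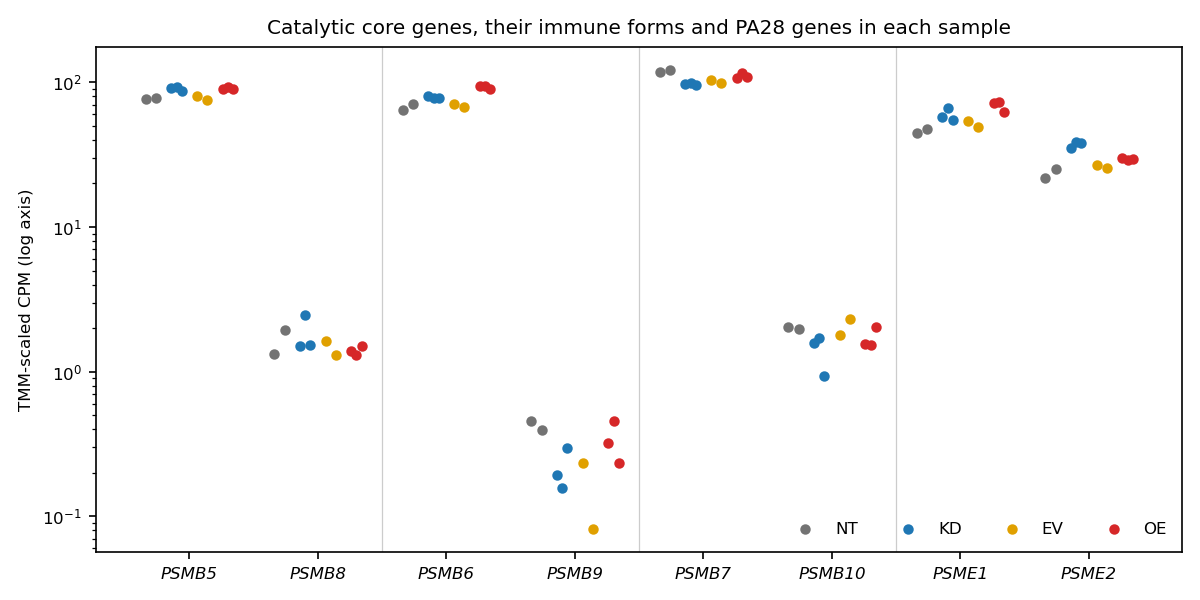
TMM-scaled CPM (log axis) in every sample of the constitutive cutting subunits PSMB5, PSMB6 and PSMB7, each beside its immune form PSMB8, PSMB9 or PSMB10, and of the PA28 genes PSME1 and PSME2. The immune forms lie far below their constitutive partners in all lines, and the 3 KD samples of PSME2 lie above those of the other lines.

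All 4 activator genes rose in KD cells against NT, beside 29.1% of all tested genes and 52.2% of those at least as abundant as the median member. PSME2 (PA28 beta, chromosome 14, 24143362 to 24147570, minus strand) was at 21.8 and 24.98 CPM in NT, 35.4, 38.6 and 38.1 in KD, 26.9 and 25.4 in EV and 29.9, 29.2 and 29.3 in OE. KD samples were the highest of the 10 and overlapped with no other line. The rise in KD cells was 0.68 ± 0.072, or 1.6-fold (adjusted p = 1.73e-08), the largest increase of any member, and the interaction was -0.51 ± 0.10 (adjusted p = 0.000239). The OE-EV difference of 0.17 was near the limit (adjusted p = 0.0531) and passed in 6 alternatives, with DESeq2 size factors (0.18), with each arm alone and without NT replicate 1 or 2 or KD replicate 1 or 2 (0.17 to 0.18). PSME1 (PA28 alpha), which forms a ring with PSME2 and lies near it on chromosome 14, was at 44.4 and 47.5 CPM in NT, 57.8, 66.5 and 54.9 in KD, 54.4 and 49.0 in EV and 71.4, 73.0 and 62.0 in OE. It rose in both arms, by 0.38 in KD (adjusted p = 0.000213) and 0.41 in OE cells (adjusted p = 9.65e-05), and its interaction was 0.03 ± 0.11 (adjusted p = 0.839). The promoter windows of both genes hold TGACNNNGC and the GAAA repeat described above, though the repeat of PSME1 lies after its start.

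PSME4 (PA200, an activator found in the nucleus, chromosome 2, 53864069 to 53970993, minus strand) was at 107 and 105 CPM in NT, 130, 119 and 124 in KD, 107 and 107 in EV and 98.3, 90.3 and 93.2 in OE. The control lines were level, KD lay above both and OE below both, and without the GC offset it was the only member called higher in KD and lower in OE cells. It rose by 0.23 in KD (adjusted p = 0.000438) and fell by 0.19 in OE cells (adjusted p = 0.00333), with an interaction of -0.42 ± 0.073 (adjusted p = 4.37e-05). With the GC offset the OE value was 0.01 and did not pass (adjusted p = 0.815). PSME3 (PA28 gamma, also nuclear) was at 154 and 158 CPM in NT, 204, 216 and 196 in KD, 181 and 173 in EV and 196, 211 and 189 in OE. It rose by 0.39 in KD (adjusted p = 7.88e-07) and by 0.17 in OE cells (adjusted p = 0.0105), and was 0.18 higher in EV than in NT (adjusted p = 0.0191). The rise in OE cells did not pass without EV replicate 2 (0.14), without OE replicate 2 (0.12) or with library size only (0.07), and the EV-NT difference did not pass without NT replicate 1 (0.16), NT replicate 2 (0.19) or EV replicate 1 (0.13).

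Of the 6 ATPases, which form 1 ring, 2 rose and 1 fell in KD cells (beside 29.1% and 28.4% of all tested genes) and 2 rose and 3 fell in OE cells (beside 25.6% and 26.4%), with medians of -0.02 and -0.08. With the GC offset 2 rose and 2 fell in KD cells and 1 rose and 2 fell in OE cells. PSMC2 (Rpt1, chromosome 7, 103328570 to 103370346, plus strand) was at 84.2 and 84.9 CPM in NT, 84.5, 79.4 and 81.0 in KD, 79.5 and 73.5 in EV and 55.6, 50.2 and 56.5 in OE. The OE samples stood below all others, a fall of 0.50 ± 0.058 or 1.41-fold (adjusted p = 1.49e-07), while the KD-NT difference was -0.05 (adjusted p = 0.457) and the interaction -0.45 (adjusted p = 7.54e-05). The GC offset left a fall of 0.16 in OE cells and an interaction of -0.28, and the KD-NT difference turned to a rise of 0.12 (adjusted p = 0.0335). PSMC1 (Rpt2) was at 54.0 and 52.8 CPM in NT, 53.1, 53.1 and 52.0 in KD, 48.7 and 44.7 in EV and 39.2, 39.5 and 41.3 in OE. It fell by 0.22 in OE cells (adjusted p = 0.00269) and its interaction was -0.20 (adjusted p = 0.0463), but 83.2% of its exonic bases lie opposite NRDE2 and strandedness was not stated. Without EV replicate 1 the values were -0.14 and -0.12 and neither passed, and the interaction also did not pass without NT replicate 1 or 2, KD replicate 1 or 3 or OE replicate 1 or 2 (-0.22 to -0.19) or with the GC offset (-0.14). Nor did it pass with DESeq2 size factors, when no genes were filtered or with the DESeq2 Wald test (-0.20 in each).

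Among the other ATPases, PSMC6 (Rpt4) fell in both arms. It was at 76.6 and 74.7 CPM in NT, 58.6, 53.4 and 58.7 in KD, 60.9 and 59.0 in EV and 46.8, 43.2 and 47.8 in OE. The decreases were 0.41 in KD (adjusted p = 1.4e-06) and 0.38 in OE cells (adjusted p = 9.51e-06), and EV was 0.34 below NT (adjusted p = 0.000218). With the GC offset PSMC6 was at -0.17 in KD (adjusted p = 0.00256), 0.01 in OE cells (adjusted p = 0.836) and -0.11 in EV versus NT (adjusted p = 0.106). PSMC4 (Rpt3) rose in both, from 94.3 and 92.1 CPM in NT to 112, 115 and 109 in KD and from 95.1 and 89.1 in EV to 123, 128 and 116 in OE. The increases were 0.26 (adjusted p = 0.000151) and 0.41 (adjusted p = 7.31e-07), and with the GC offset the rise in KD cells was 0.135. PSMC3 (Rpt5), at 105 and 105 CPM in NT, 126, 121 and 118 in KD, 103 and 99.9 in EV and 116, 127 and 112 in OE, rose by 0.22 in each arm (adjusted p = 0.00128 and 0.00167), but the OE rise did not pass with library size only (0.12), and neither passed with the GC offset (0.05 and 0.06). PSMC5 (Rpt6) passed in no comparison, though with the GC offset it was lower in KD than in NT (-0.13) and in EV than in NT (-0.15).

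The large scaffold subunits of the base, PSMD1 (Rpn2) and PSMD2 (Rpn1), rose in KD cells. PSMD2 was at 310 and 293 CPM in NT, 392, 381 and 359 in KD, 298 and 285 in EV and 308, 328 and 303 in OE. The KD samples were the highest, with a rise of 0.32 ± 0.050 (adjusted p = 6.7e-06). The difference was 0.10 in OE versus EV (adjusted p = 0.0944), and the interaction was -0.22 (adjusted p = 0.014). The OE-EV difference of PSMD2 passed with the replicate block (0.13) and without KD replicate 2 (0.10). Its rise in KD cells was 0.19 with the GC offset. The interaction did not pass without NT replicate 2 (-0.18), KD replicate 1 (-0.18) or EV replicate 1 (-0.17). PSMD1 was at 95.6 and 96.4 CPM in NT, 107, 102 and 110 in KD, 95.4 and 92.6 in EV and 84.7, 92.2 and 91.2 in OE. It rose by 0.15 in KD (adjusted p = 0.0177), and its interaction was -0.22 (adjusted p = 0.0172). The KD rise did not pass without NT replicate 1 or 2 or KD replicate 3 (0.12 to 0.15), nor the interaction without NT replicate 1, KD replicate 3, EV replicate 1 or OE replicate 1 (-0.22 to -0.18) or with the GC offset (-0.12). PSMD4 (Rpn10), a ubiquitin receptor, rose by 0.18 in OE cells (adjusted p = 0.00337), which did not pass without EV replicate 2 (0.15), with library size only (0.08) or with the GC offset (0.08), and differed by 0.00 in KD cells (adjusted p = 0.99), where it was lower with the GC offset (-0.13, adjusted p = 0.00657).

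In the lid 2 of 8 genes rose and 1 fell in KD cells (beside 29.1% and 28.4% of all tested genes), 3 rose and 3 fell in OE cells (beside 25.6% and 26.4%), and the interaction was positive for 1 and negative for 3 (beside 20.3% and 24%). These counts depended on the setting, since in KD cells 5 rose without KD replicate 2, with library size only or with the GC offset, and in OE cells 5 rose and 1 fell with that offset. With library size only 5 interactions were negative. PSMD8 (Rpn12, which enters the lid late in its assembly, chromosome 19, 38374563 to 38383850, plus strand) was at 208 and 202 CPM in NT, 186, 192 and 178 in KD, 231 and 239 in EV and 286, 309 and 283 in OE. No lines overlapped, and the order from KD to OE was the order of CPT1A levels in the 4 lines. PSMD8 fell by 0.15 in KD (adjusted p = 0.0127) and rose by 0.32 in OE cells (adjusted p = 8.37e-06), with an interaction of 0.47 ± 0.070 (adjusted p = 6.87e-06), and EV was 0.19 above NT (adjusted p = 0.00751). The fall in KD cells did not pass without NT replicate 1 (-0.13) or KD replicate 3 (-0.12), and the EV-NT difference did not pass without NT replicate 2 or EV replicate 2 (0.17 in each) or with the GC offset (0.04, adjusted p = 0.521). With that offset the KD-NT difference was -0.33 and the OE-EV difference 0.145.

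PSMD14 (Rpn11, the deubiquitinase of the lid, chromosome 2, 161308425 to 161411717, plus strand) was at 48.1 and 46.6 CPM in NT, 55.0, 48.3 and 49.6 in KD, 42.4 and 43.7 in EV and 34.7, 32.2 and 33.2 in OE. OE samples were the lowest of the 10. It fell by 0.37 ± 0.065 in OE cells (adjusted p = 4.79e-05), differed by 0.11 in KD cells (adjusted p = 0.154) and had an interaction of -0.47 (adjusted p = 0.00015). The fall in OE cells was 0.16 with the GC offset, and the KD-NT difference passed with it (0.18, adjusted p = 0.00397) and without KD replicate 2 (0.14). PSMD3 (Rpn3) rose in both arms, from 165 and 165 CPM in NT to 216, 223 and 204 in KD and from 183 and 175 in EV to 227, 245 and 221 in OE. The increases were 0.38 (adjusted p = 1.17e-06) and 0.37 (adjusted p = 2.43e-06), with no overlap with the controls, and with the GC offset they were 0.195 and 0.18. PSMD11 (Rpn6) rose by 0.32 in KD cells (adjusted p = 6.19e-06) and differed by 0.06 in OE cells (adjusted p = 0.354; 0.125 with the GC offset, adjusted p = 0.0188), with an interaction of -0.26 (adjusted p = 0.00394). PSMD12 (Rpn5), whose promoter stretch is shown above, differed by 0.11 in KD (adjusted p = 0.0819), fell by 0.25 in OE cells (adjusted p = 0.00067) and had an interaction of -0.36 (adjusted p = 0.000577). With the GC offset PSMD12 was higher in KD (0.32, adjusted p = 1.02e-06) and in OE cells (0.12, adjusted p = 0.0418), which turned the OE direction, and the interaction was -0.20. PSMD6 fell and PSMD7 rose in OE cells, by 0.20 and 0.17. Neither passed without 1 EV sample, PSMD6 without replicate 1 (-0.12) and PSMD7 without replicate 2 (0.11), nor did PSMD6 with the GC offset (-0.10) or PSMD7 with library size only (0.07), and PSMD7 rose by 0.26 with the GC offset. PSMD13 passed in no comparison, though it did in KD versus NT with library size only (0.13), with the replicate block (0.12) and without KD replicate 3 (0.14), in the interaction with library size only (-0.24) and in EV versus NT with library size only (0.15), with the block or without KD replicate 2 (0.14 in each). For PSMD7, 51.6% of exonic bases lie opposite another gene.

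Of the 3 chaperones that assemble the base, PSMD10 (gankyrin, chromosome X, 108084207 to 108091549, minus strand) fell in both arms. Its level was 53.8 and 51.0 CPM in NT, 40.8, 36.7 and 38.8 in KD, 42.7 and 42.1 in EV and 30.8, 33.5 and 30.9 in OE. Neither arm overlapped with its control, and the decreases were 0.43 in KD (adjusted p = 1.71e-06) and 0.42 in OE cells (adjusted p = 7.8e-06), with EV 0.31 below NT (adjusted p = 0.0011). The OE value was -0.14 with the GC offset and did not pass (adjusted p = 0.0614), and EV was 0.19 below NT. PSMD5, at 27.2 and 28.2 CPM in NT, 30.0, 27.7 and 28.2 in KD, 27.8 and 29.9 in EV and 31.4, 27.7 and 26.8 in OE, overlapped between lines in each arm, and with the GC offset it was higher in KD (0.16, adjusted p = 0.0439) and in OE cells (0.255, adjusted p = 0.00268). PSMD9, at 4.57 and 4.49 CPM in NT, 5.06, 4.70 and 4.58 in KD, 4.68 and 5.44 in EV and 5.82, 4.75 and 5.11 in OE, passed in no comparison.

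Over both arms, 8 members rose in each (PSMB2, PSMB5, PSMB6, PSMC3, PSMC4, PSMD3, PSME1 and PSME3) and 3 fell in each (PSMA4, PSMC6 and PSMD10). Rising and falling in both are patterns of 13.7% and 12.7% of all tested genes and of 33.7% and 12.1% of those at least as abundant as the median member. With the GC offset 10 rose in both, without PSMB6 and PSMC3 and with PSMD5, PSMD7, PSMD11 and PSMD12, and 0 fell in both. With that offset 13.6% of the 14018 tested genes with a GC value rose in both arms and 11.1% fell in both. Changes in opposite directions were seen for 3 members, PSMB7 and PSMD8, which fell in KD and rose in OE cells, and PSME4, which is 7.5% of members beside 8.36% of all tested genes and 14.0% of the abundant ones. The 3 were PSMD8, PSMC2 and PSMD14 with the GC offset, beside 11.4% of the tested genes with a GC value. A further 6 members passed in KD versus NT and not in OE versus EV, 4 higher and 2 lower, and the interaction passed for all 6. Those 2 patterns are 10.0% and 5.0% of members, beside 10.8% and 11.9% of all tested genes and 11.6% and 7.57% of the abundant ones. Another 13 passed in OE versus EV and not in KD versus NT, 4 higher and 9 lower. These patterns are 10.0% and 22.5% of members, beside 8.24% and 9.01% of all tested genes and 8.61% and 6.07% of the abundant ones. Among the 13 members the interaction did not pass for PSMA1, PSMA2, PSMA5, PSMA7, PSMD6 and PSMD7. The other 7 passed in neither arm (17.5%, beside 25.3% of all tested genes and 6.34% of the abundant ones).

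The changes in OE cells varied with the GC content of the transcripts, which ran from 36.4% to 61.7% over the members with a median of 48.2%. Below the median, 15 of 20 members had a negative OE-EV difference and the median was -0.23. At or above it, 16 of 20 were positive and the median was 0.15. Across the 40 members the log2 fold change in OE versus EV had a Pearson r of 0.70 and a Spearman rho of 0.74 with GC content, and across the 14018 tested genes with a GC value the figures were 0.32 and 0.45. These are correlations across genes of the same libraries, which are not independent replicates. The members had a Pearson r of 0.24 with GC content in KD versus NT, 0.57 in the interaction and 0.56 in EV versus NT.

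An offset for GC content was therefore added to the fit, an alternative chosen after seeing the data. It also moved the median of the tested genes with a GC value, by -0.069 in KD versus NT and -0.011 in OE versus EV. The shift was 0.058 in the interaction and -0.056 in EV versus NT. Small differences with the offset include this shift. The offset is fitted to the trend with GC content in these same samples, so a weaker trend follows from how it is made. With the offset, r over the members was 0.14 in OE versus EV, 0.38 in the interaction, -0.24 in KD versus NT and -0.05 in EV versus NT. Of the 13 members that fell in OE cells 5 remained lower, 7 did not pass and 1 was higher (PSMD12, 0.12, adjusted p = 0.0418). Of the 14 that rose, 10 remained higher. In the alpha ring, PSMA3 and PSMA4 remained lower (-0.30 and -0.31, adjusted p = 6.29e-05 and 1.75e-06), PSMA1, PSMA2 and PSMA5 did not pass, and the median of the 7 genes moved from -0.33 to -0.10. In the beta ring 4 of 7 genes were higher with the offset, and the median moved from 0.23 to 0.12. PSMC2 and PSMD14 also remained lower in OE cells (-0.16 in each, adjusted p = 0.00744 and 0.0176). With the offset 6 of 7 beta-ring genes had a positive interaction (5 without it), with a median of 0.24. The interaction of PSMA3, PSMA4, PSMC2, PSMD12, PSMD14 and PSME4 remained negative (-0.20 to -0.34), and 10 members were negative in all. In KD versus NT, both PA28 genes and both other activators were higher with the offset as well.

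**Figure D4:**
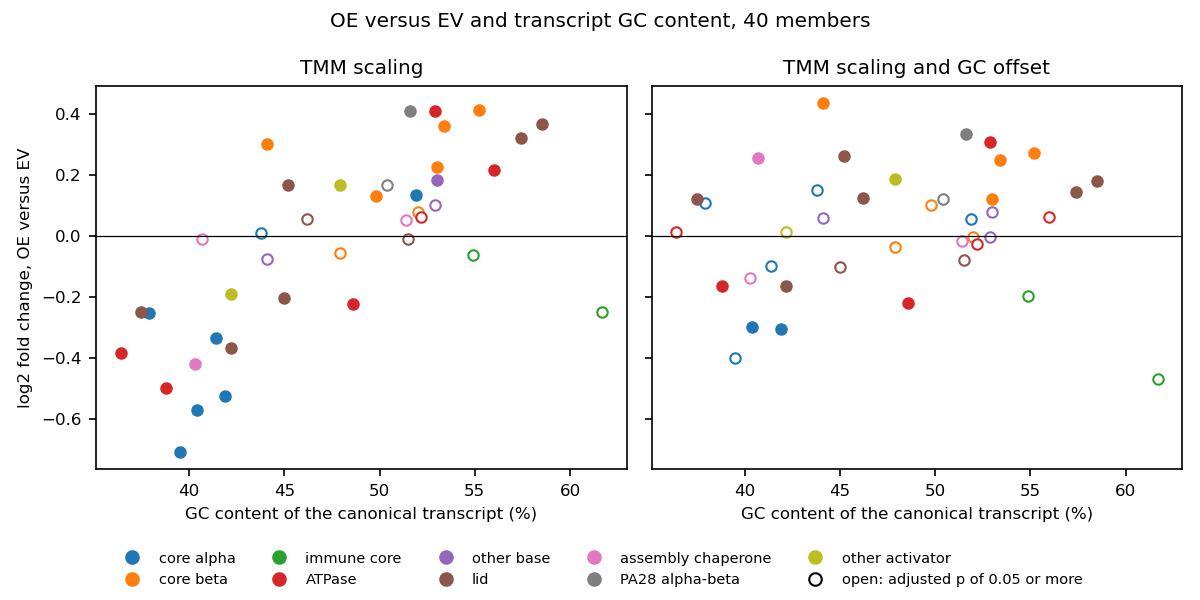
Log2 fold change in OE versus EV of the 40 members against the GC content of the canonical transcript (%), coloured by class and filled where the adjusted p was under 0.05, with TMM scaling (left) and with the GC offset added (right). Differences run from low at 36% to 42% GC to high at 51% to 59% GC on the left. On the right the trend, which the offset is made to remove, is mostly gone.

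The 28 other tested genes of the pathway, listed by function, held genes that rose and genes that fell. In KD cells 12 rose and 7 fell, in OE cells 11 rose and 8 fell, and the interaction was positive for 11 and negative for 11, with medians of 0.05, 0.04 and 0.04. Over all tested genes the higher and lower shares in these 3 comparisons were 29.1% and 28.4%, 25.6% and 26.4%, and 20.3% and 24%. The remaining subunits went opposite ways in both arms, with ADRM1, a ubiquitin receptor of the base, up by 0.30 and 0.56 (adjusted p = 6.15e-05 and 1.62e-08) and SEM1, a small lid subunit, down by 0.21 and 0.56 (adjusted p = 0.0275 and 4.63e-06). Core assembly genes were mixed, since POMP, which matures the beta ring, fell by 0.20 in KD and 0.14 in OE cells (adjusted p = 0.00214 and 0.0333) and PSMG1 rose by 0.26 in KD and fell by 0.38 in OE cells (adjusted p = 0.00369 and 0.000219). All 3 enzymes that bind the proteasome had a negative interaction, USP14 (-0.54), UCHL5 (-0.45) and UBE3C (-0.80), with adjusted p of 4.3e-07, 0.00692 and 2.32e-10. NFE2L1 fell by 0.33 in KD cells (adjusted p = 5e-06) and differed by 0.11 in OE cells (adjusted p = 0.0636), and DDI2, the protease that cuts NFE2L1, rose by 0.39 in KD and fell by 0.28 in OE cells (adjusted p = 1.98e-06 and 0.000153). Of the 5 ubiquitin and activation genes 4 rose in OE cells, among them the polyubiquitin gene UBB (0.36, adjusted p = 4.34e-06). VCP, the segregase that hands on ubiquitin-bearing proteins, rose by 0.78 in KD and 0.46 in OE cells (adjusted p = 6.04e-12 and 9.34e-08).

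Partners of the immune subunits in antigen presentation were tested as 11 genes, of which 4 rose and 6 fell in KD cells (36.4% and 54.5%, beside 29.1% and 28.4% of all tested genes) and 6 rose and 1 fell in OE cells (54.5% and 9.09%, beside 25.6% and 26.4%). The peptide transporter TAP1 rose by 0.33 in KD and 0.79 in OE cells (adjusted p = 0.000889 and 1.42e-08). NLRC5, the activator of class I genes, fell by 0.93 in KD and rose by 0.54 in OE cells (adjusted p = 8.4e-06 and 0.00427), and IRF1 fell by 1.49 in KD cells (adjusted p = 3.41e-06). The interaction was positive for 8 of the 11 (72.7%, beside 20.3% of all tested genes).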

How the data were processed

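RNA from 10 samples of 4 lines of LNCaP-C4-2 cells was sequenced as read pairs. The authors trimmed adapters with BBDuk, aligned and counted reads per gene with STAR 2.6.0a (also in the submitters' processing notes) against the Ensembl human transcriptome on hg38, and deposited whole-number counts without normalization for 57353 gene symbols; 0 columns were left out. Whether counting used strand was not stated.

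Counts were filtered with filterByExpr (17230 genes kept) and scaled with TMM (factors 0.939 to 1.05). The test was the quasi-likelihood F test of edgeR 4.0.16 (R 4.3.3), with 1 mean per line and with Benjamini-Hochberg adjustment over all tested genes. A call needed an adjusted p under 0.05. The common biological coefficient of variation was 0.0446. Depth was 23555205 to 28615770 counts per sample, and a floor of 3 counts, which covers counting error only, corresponds to 0.0995 to 0.136 CPM. Samples of a line differed by more than counting noise. Same-numbered samples of different lines did not deviate together (mean r = -0.0028 over 13 pairs).

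Gene positions, lengths and GC content came from GENCODE v44 on GRCh38, matched by symbol, and promoters from RefSeq. GC content was known for 81.4% of tested genes. The GC offset was a lowess trend (span 0.3) per sample. Values in every sample were given for the 2 members of each class with the largest absolute interaction, the cutting subunits, the PA28 genes and members called in the same direction in both arms; other members are given by their tests. Calling was tested on simulated data, and no result given here rests on that test. The members, classes and gene lists were chosen with earlier results of these data known. Results of 3 other genes are not reported here.

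Results for the members were recomputed with other tools (the Wald test of DESeq2 1.42.0, and voom from limma 3.58.1), other scalings (size factors of DESeq2, or the library size alone), other filters (none, or 10 counts in all samples), a replicate block, a separate model for each arm, the study's limit of 1e-04, every sample left out once, and the GC offset. Values given for the other pathway genes and the immune partners are from the main test only.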

Additional observations from a re-analysis of the deposited data

How the results depend on the processing

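Each line had 2 or 3 samples, the controls differed from each other, and depth limits the immune core genes to 28 to 62 counts per sample. The offset for GC content was chosen after seeing the data, and whether GC content was the cause of the changes it moved was not tested.

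The direction of called members was the same under all alternatives but the GC offset, with which 4 members turned in OE versus EV: PSMA5 (0.11), PSMC6 (0.01), PSMD12 (0.12) and PSME4 (0.01). At the study's limit of 1e-04, 5 members were higher and 4 lower in KD versus NT, 7 higher and 6 lower in OE versus EV, 2 positive and 2 negative in the interaction, and 0 higher and 1 lower in EV versus NT. With library size only, which moved the median of all genes by -0.098 in OE versus EV and -0.134 in the interaction, 8 members were higher in OE versus EV and 3 in the interaction. Without the filter the interaction was positive for 4. With the GC offset 5 were lower in OE versus EV and 1 higher in EV versus NT. With a replicate block, 16 were higher and 7 lower in KD versus NT, 16 and 13 in OE versus EV, 7 and 12 in the interaction, and 3 and 13 in EV versus NT; the shared numbers do not pair the samples.

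When each sample was left out in turn, the counts were 11 to 16 higher and 5 to 9 lower in KD versus NT, 9 (without EV replicate 2) to 16 higher and 10 to 13 lower in OE versus EV, 3 (without NT replicate 2, EV replicate 2 or OE replicate 1) to 8 positive and 8 to 12 negative in the interaction, and 1 to 4 higher and 6 (without NT replicate 1) to 14 lower in EV versus NT. The interaction was positive for 4 without OE replicate 2, and EV versus NT had 7 lower without EV replicate 2. Counts under DESeq2 size factors, the DESeq2 Wald test, limma-voom, each arm alone and the stricter filter were within 1.5 times those reported.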
